A study of Mus musculus with 6 samples.

Results

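A set of 9 genes of the dystrophin complex and the costamere was followed in mouse hearts with and without *Trdn-as* transcription. They were taken by their symbol in the deposited table of normalised read counts: *Dmd*, *Dag1*, *Sgca*, *Sgcb*, *Sgcd*, *Cav3*, *Vcl*, *Itgb1* and *Des*. All 9 were found among the 21776 genes of the table, and all 9 were among the 13753 genes with a mean value of at least 10 that entered the test. *Trdn-as* gives a non-coding RNA from the strand opposite to *Trdn*, which encodes the calcium release protein triadin. KO hearts came from mice homozygous for a polyadenylation signal in the first *Trdn-as* exon. The allele was made with Cas9 in mouse embryonic stem cells, and chimeras were backcrossed to C57BL/6. It was a germline allele, although the series text speaks of hearts deficient in cardiomyocytes. WT hearts served as controls. Each group held 3 hearts, each sequenced as a single stranded total RNA library. The series title gives adult hearts, the age and sex of the sequenced animals are not given in the sources used here, and sex was not part of the study design.

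The genotype labels were checked first. *Trdn-as* (listed as AC157017.2, ENSMUSG00000112707, chr10:33222345-33256418 on the minus strand of GRCm38) had values of 1, 0 and 1 in the KO hearts, against 690, 773 and 688 in the WT hearts. Values are given throughout in the order of replicates 1 to 3. *Trdn* (ENSMUSG00000019787) stood at 2489, 2381 and 2551 in KO hearts and at 1541, 1541 and 1516 in WT hearts. Its log2 fold change was 0.69 (SE 0.05; limma, Benjamini-Hochberg adjusted p = 2.35e-07). Over the alternative settings described below, the adjusted limma p of *Trdn* reached 0.145, past the threshold of 0.05. The highest unadjusted limma p was 4.21e-05. The libraries held an estimated 2.59 to 3.62 M counted reads, the fewest in WT replicate 1. Markers of cardiomyocytes were abundant, and the 4 skeletal muscle markers present in the table summed to 12 to 17 in KO hearts and 11 to 18 in WT hearts. Whole hearts mix cell types, so that fewer cells of a type and less RNA per cell cannot be told apart.

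Dystrophin joins the actin cytoskeleton of the muscle fibre to a group of membrane proteins around dystroglycan, which binds laminin outside the cell. Sarcoglycans brace this complex in the membrane, and caveolin-3 forms the caveolae of muscle beside it. Costameres are the sites along the sarcolemma where Z-discs are tied to the membrane, and there integrins, vinculin and desmin filaments form a parallel path for force. Loss of dystrophin, of a sarcoglycan, of vinculin or of desmin is a known cause of cardiomyopathy.

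The start regions of *Dmd* and *Vcl* are shown because, among the 9 genes, only their RefSeq promoter windows (GRCm38.p6, 250 bases ahead of the first transcribed base) held a CArG box, the binding sequence of serum response factor. All 9 genes had a window, 11 in all, since *Dag1* and *Dmd* have 2 each. Capitals mark the CArG box in each sequence and, in the first *Dmd* window, also a MEF2 site that overlaps a TATAAA match on the other strand. The internal *Dmd* window has no such match and is given to compare the starts of the same gene.

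Dmd, first start, chrX:82948620-82948869, plus strand: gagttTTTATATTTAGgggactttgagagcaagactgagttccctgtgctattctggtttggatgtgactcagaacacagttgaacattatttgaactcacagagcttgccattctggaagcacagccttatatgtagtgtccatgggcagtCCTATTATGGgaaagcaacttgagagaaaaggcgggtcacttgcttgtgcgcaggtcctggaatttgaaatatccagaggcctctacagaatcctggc

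Dmd, internal start, chrX:85048045-85048294, plus strand: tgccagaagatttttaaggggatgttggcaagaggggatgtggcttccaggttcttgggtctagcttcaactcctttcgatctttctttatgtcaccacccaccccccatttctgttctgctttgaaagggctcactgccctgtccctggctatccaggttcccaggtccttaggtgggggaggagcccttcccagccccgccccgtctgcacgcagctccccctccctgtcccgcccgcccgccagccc

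Vcl, chr14:20929148-20929397, plus strand: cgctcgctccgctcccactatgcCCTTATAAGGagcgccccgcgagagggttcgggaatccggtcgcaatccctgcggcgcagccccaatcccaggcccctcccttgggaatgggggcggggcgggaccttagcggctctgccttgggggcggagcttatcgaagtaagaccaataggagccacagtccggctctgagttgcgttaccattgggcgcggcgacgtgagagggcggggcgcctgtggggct

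The CArG box lies 98 to 89 bases ahead of the first *Dmd* start and 227 to 218 bases ahead of the *Vcl* start. The MEF2 site lies 244 to 235 bases ahead of the first *Dmd* start, and the TATAAA match 245 to 240 bases ahead. Both strands were searched in 32851 windows of this length. A CArG box was present in 1.47% of them and in 2 of the 11 windows of the 9 genes, and a MEF2 site was present in 2.92% and in 1 of 11. TATAAA was present in 12.4% and in 2 of 11, GGGCGG (the GC box) in 32.7% and in 8 of 11, CANNTG (the E-box) in 66.2% and in 7 of 11, and CATTCC (the M-CAT element) in 12.6% and in 3 of 11. The 2 *Dag1* windows overlap each other, and their GC boxes and E-box are the same sites met in both. These matches describe letters in the windows. GC content was 45.2% ahead of the first *Dmd* start and 60.0% ahead of the internal one. In GENCODE M21 the long protein-coding transcript of 14910 bases begins at position 82948903 of chromosome X, next to the first window, and protein-coding transcripts of 4438 and 1858 bases begin at 85048413, next to the internal window. The deposited value per gene adds the reads of all these transcripts.

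The first question was whether the 9 genes differed between KO and WT hearts. None of the 9 passed an adjusted p of 0.05 (limma, Benjamini-Hochberg over 13753 genes), where 4 of all tested genes, or 0.0291%, did. At an unadjusted p under 0.05, 1 of the 9 was found, *Des*, against 5.74% of all tested genes. Of the 9, 7 lay lower and 2 higher in KO hearts, where 49.4% of all tested genes lay lower. For none of the 9 were KO and WT hearts fully separate, which was the case for 9.07% of all tested genes. The median log2 fold change of the 9 was -0.06 (0.00 over all genes), with a range from -0.17 to 0.05. Standard errors ran from 0.06 to 0.11, and the median over all genes was 0.12. The 95% intervals of the 9 genes reached from a 0.757-fold level (*Sgca*) to a 1.178-fold level (*Cav3*) in KO against WT hearts, so that no gene's interval held a change as large as that of *Trdn*. The fold changes throughout are on the scale of log2(value + 1).

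**Figure D1:**
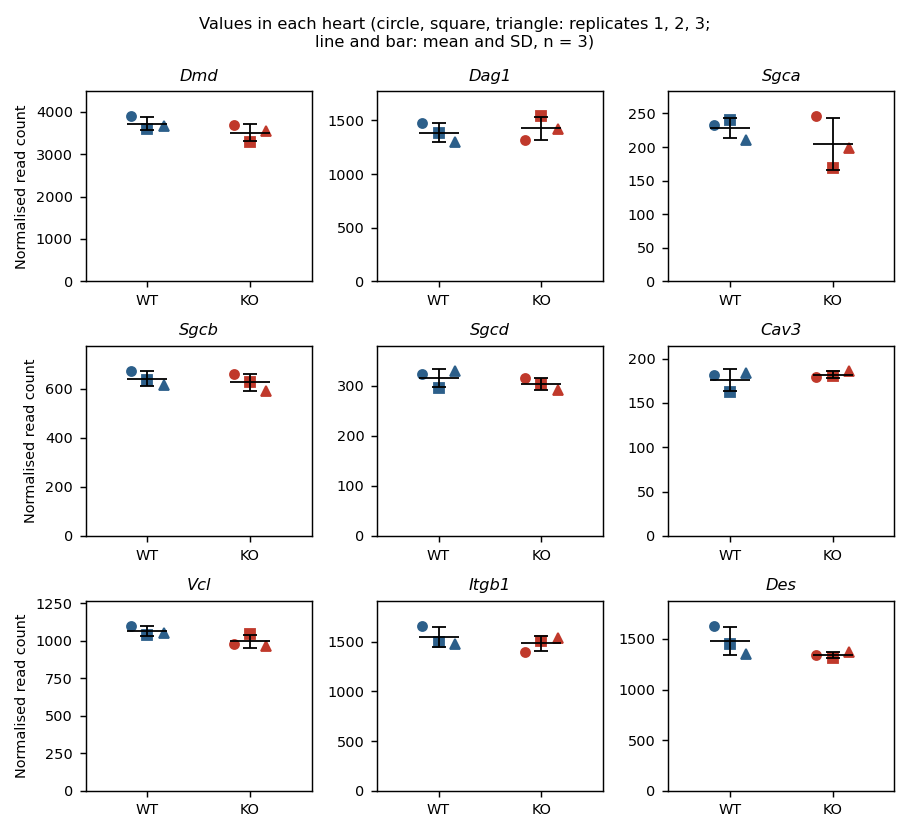
Normalised read count (vertical axis, from 0) of each of the 9 genes in every heart, with the genotype on the horizontal axis, 1 symbol per heart (circle, square and triangle for replicates 1, 2 and 3) and mean and SD as line and bar (n = 3). KO and WT hearts overlap in each of the 9 panels; the KO hearts of *Sgca* spread from 169 to 246.

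*Dmd* encodes dystrophin, the rod that links actin to dystroglycan (ENSMUSG00000045103, chrX:82948903-85206141, plus strand). The KO hearts had normalised read counts of 3689, 3284 and 3550, the WT hearts of 3898, 3597 and 3672. KO replicate 2 was the lowest and WT replicate 1 the highest heart, and the groups overlapped. The mean was 3508 ± 206 (SD, n = 3) in KO and 3722 ± 157 (SD, n = 3) in WT hearts. The log2 fold change was -0.09 (SE 0.06, 95% interval -0.20 to 0.03; limma, adjusted p = 0.892), and with a heart left out it ran from -0.12 (without KO replicate 1) to -0.04 (without KO replicate 2). *Dag1*, dystroglycan, the laminin receptor of the complex (ENSMUSG00000039952, chr9:108204634-108263958, minus strand), had values of 1321, 1540 and 1418 in KO and 1472, 1386 and 1298 in WT hearts. KO replicate 2 was the highest and WT replicate 3 the lowest heart. Its log2 fold change was 0.04 (SE 0.06, 95% interval -0.09 to 0.17; limma, adjusted p = 0.966). It turned to -0.02 without KO replicate 2 and to -0.0049 without WT replicate 3.

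The sarcoglycans are small membrane proteins that assemble with each other before they join dystroglycan. *Sgca*, alpha-sarcoglycan (ENSMUSG00000001508, chr11:94962791-94976327, minus strand), had values of 246, 169 and 198 in KO and 233, 240 and 211 in WT hearts. The KO group held both the highest and the lowest heart. Means were 204 ± 38.9 (SD, n = 3) in KO and 228 ± 15.1 (SD, n = 3) in WT hearts. The log2 fold change was -0.17 (SE 0.11, 95% interval -0.40 to 0.06; limma, adjusted p = 0.892). Without KO replicate 1 the difference was -0.31 with an unadjusted limma p of 0.00541 and an adjusted p of 0.327, and without KO replicate 2 it was -0.04. The size of the difference thus depends on which KO hearts are included. The spread within groups on the log2 scale was 0.204 where counting alone would give 0.0986.

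*Sgcb*, beta-sarcoglycan (ENSMUSG00000029156, chr5:73632749-73647790, minus strand), had values of 661, 626 and 589 in KO and 672, 637 and 614 in WT hearts. *Sgcd*, delta-sarcoglycan (ENSMUSG00000020354, chr11:46896253-47578965, minus strand), had 315, 303 and 292 in KO and 322, 295 and 329 in WT hearts. In both genes the groups overlapped. Their log2 fold changes were -0.04 (95% interval -0.17 to 0.10; limma, adjusted p = 0.972) and -0.05 (95% interval -0.21 to 0.10; limma, adjusted p = 0.960). The *Sgcb* difference was 0.0061 without KO replicate 3, and that of *Sgcd* ran from -0.10 without WT replicate 2 to -0.02 without WT replicate 3. For *Sgcd* the spread within groups (0.0705 on the log2 scale) was no larger than counting alone would give (0.0821).

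*Cav3* encodes caveolin-3, the coat protein of muscle caveolae (ENSMUSG00000062694, chr6:112459505-112472872, plus strand). Its values were 179, 180 and 186 in KO and 182, 162 and 184 in WT hearts. The KO hearts lay close together, and WT replicate 2 was low. The log2 fold change was 0.05 (SE 0.09, 95% interval -0.14 to 0.24; limma, adjusted p = 0.973) and turned to -0.01 without WT replicate 2. The spread within groups was 0.075 on the log2 scale, and 0.108 was the value from counting alone.

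At the costamere, *Itgb1* encodes the beta-1 integrin, the partner of the muscle alpha-7 integrin in binding laminin (ENSMUSG00000025809, chr8:128685654-128733200, plus strand). It had values of 1401, 1511 and 1540 in KO and 1660, 1495 and 1475 in WT hearts, with WT replicate 1 highest. The log2 fold change was -0.06 (SE 0.06, 95% interval -0.18 to 0.07; limma, adjusted p = 0.944), and it was -0.00 without WT replicate 1. *Vcl*, vinculin, couples integrin and talin to actin (ENSMUSG00000021823, chr14:20929398-21033676, plus strand). Its values were 979, 1044 and 967 in KO and 1101, 1042 and 1056 in WT hearts. The groups overlapped only in that KO replicate 2, at 1044, lay above WT replicate 2, at 1042. The log2 fold change was -0.10 (SE 0.06, 95% interval -0.22 to 0.02; limma, adjusted p = 0.879). Exons of *Vcl* overlap those of *Ap3m1* on the opposite strand over 25.5% of their bases. The authors counted by strand.

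*Des* encodes desmin, the intermediate filament between Z-discs and costameres (ENSMUSG00000026208, chr1:75360329-75368579, plus strand). Its values were 1340, 1310 and 1371 in KO and 1630, 1452 and 1353 in WT hearts. WT replicates 1 and 2 lay above all KO hearts, and WT replicate 3 lay among them. Means were 1340 ± 30.5 (SD, n = 3) in KO and 1478 ± 140 (SD, n = 3) in WT hearts. The log2 fold change was -0.14 (SE 0.06, 95% interval -0.27 to -0.01; limma, unadjusted p = 0.0426 and adjusted p = 0.851). It was -0.06 without WT replicate 1 (limma, unadjusted p = 0.260) and -0.20 without WT replicate 3 (limma, unadjusted p = 0.00314). The latter was the only one of the 6 fits with a heart left out in which its unadjusted p stayed under 0.05; the other 5 gave 0.0568 to 0.260. Over the 15 alternatives the adjusted p of *Des* ran from 0.345 to 0.999. Exons of *Des* overlap the opposite-strand gene *Gm15179* over 5.86% of their bases.

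**Figure D2:**
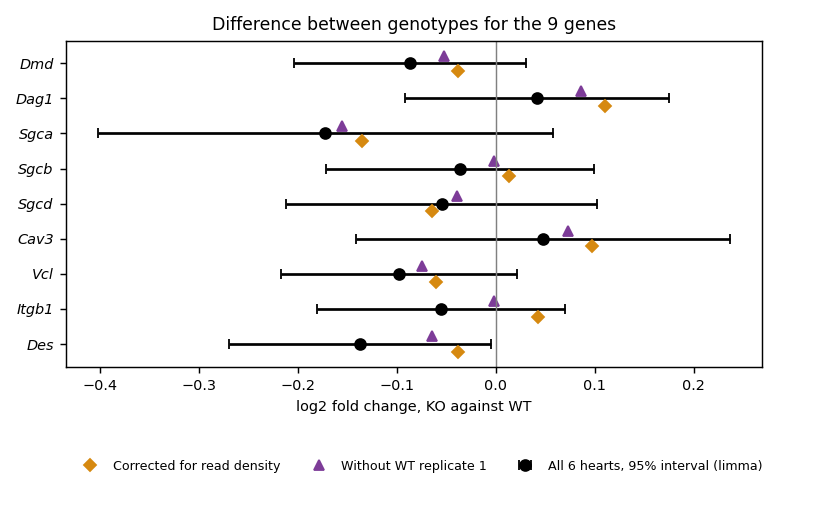
Log2 fold change, KO against WT (horizontal axis), for each of the 9 genes (vertical axis), with the 95% interval from limma over all 6 hearts, the value without WT replicate 1 (triangles) and the value after correction for read density (diamonds). Of the 9 intervals, 8 cover 0; that of *Des* ends at -0.01, and its value without WT replicate 1 is -0.06.

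The 6 hearts were next compared by how far each gene lay from its own mean over all hearts. The mean deviation of the 9 genes on the log2 scale was 0.10 in WT replicate 1, where all 9 genes lay above their own mean and 5 had their highest value. It was between -0.05 and -0.00 in the other hearts, where 3 to 5 genes lay above their mean. The mean deviation of 8 cardiomyocyte markers was 0.26 in WT replicate 1, the library with the fewest reads. In the other hearts it ran from -0.12 (KO replicate 1) to 0.07 (WT replicate 2). All 8 cardiomyocyte markers were lower in KO hearts, 5 of them at an unadjusted p under 0.05 (5.74% of all tested genes) and none after adjustment (limma). Their median log2 fold change was -0.16, and -0.06 without WT replicate 1, where all 8 were still lower. Their summed level ran from 20607 to 22005 in KO and from 21471 to 26365 in WT hearts. Without WT replicate 1, 7 of the 9 genes were still lower in KO hearts, and the median of the 9 was -0.04. Their part in the differences of the 9 genes was not tested.

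**Figure D3:**
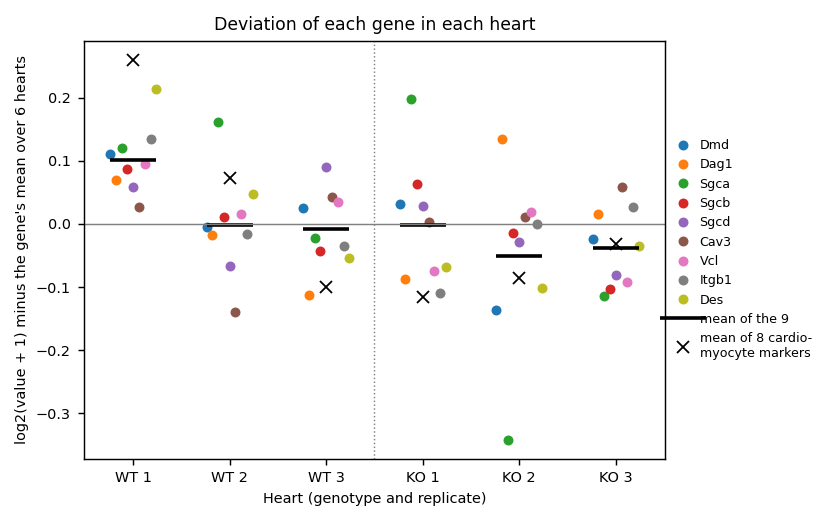
Deviation of each of the 9 genes from its own mean over the 6 hearts (vertical axis, log2 scale) in each heart (horizontal axis), with 1 point per gene, a line for the mean of the 9 and a cross for the mean of 8 cardiomyocyte markers. In WT replicate 1 all 9 points lie above 0 and the line is at 0.10; in the other hearts the line lies between -0.05 and 0.

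The differences between hearts also moved with read density, the number of reads per exonic kilobase. A smooth trend on density was fitted in each library over all tested genes and subtracted. Its difference between KO and WT hearts, on the log2 scale, was -0.10 for the densest genes, *Des* and *Itgb1*, and 0.01 for the sparsest, *Sgcd*. After this correction *Des* was at -0.04 (limma, unadjusted p = 0.349), *Itgb1* at 0.04, *Sgcb* at 0.01, *Dag1* at 0.11, *Cav3* at 0.10, *Dmd* at -0.04 and *Sgcd* at -0.06. Of the 9, 5 were then lower in KO hearts, and the cardiomyocyte markers had a median of -0.05, with all 8 lower. *Sgca* and *Vcl* were at -0.14 and -0.06. The correction used these same libraries.

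Per length, *Des* and *Itgb1* were the most abundant of the 9 transcripts, with 375 and 371 normalised read counts per exonic kilobase as a mean over the 6 hearts. *Dag1* followed with 221, then *Sgcb* with 156, *Cav3* with 155, *Dmd* with 152, *Vcl* with 126, *Sgca* with 125 and *Sgcd* with 37.5. Only 0.466% of the tested genes were denser than *Des*, against 36.7% for *Sgcd*. In this order the hearts of *Itgb1* and *Dag1*, *Dag1* and *Sgcb*, *Dmd* and *Vcl*, and *Sgca* and *Sgcd* did not overlap. Those of *Des* and *Itgb1*, *Sgcb* and *Cav3*, *Cav3* and *Dmd*, and *Vcl* and *Sgca* did. The length used is the union of all annotated exons, which for *Dmd* is 23801 bases against 14910 for its longest transcript. With the longest transcript as length, a setting chosen after seeing the data, *Dmd* stood at 242 and *Vcl* at 196 per kilobase, above *Sgcb* at 167 and *Cav3* at 155. *Des*, *Itgb1* and *Dag1* stood at 465, 397 and 248, and *Sgcd* at 69.5.

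**Figure D4:**
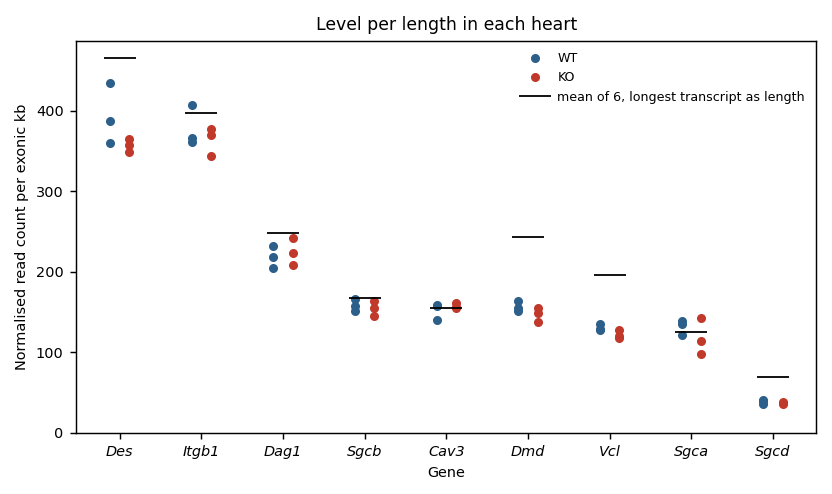
Normalised read count per exonic kilobase (vertical axis) in each heart, for the 9 genes in order of their mean (horizontal axis), with WT and KO hearts as separate points and a line for the mean level per kilobase of the longest transcript. *Des* and *Itgb1* share the top, *Sgcd* is the lowest, and the lines of *Dmd* (242) and *Vcl* (196) lie well above their points.

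The 6 ratios within each heart, taken per exonic kilobase, compared members with each other or with a relative. The length was the union of all annotated exons, so the level of a ratio depends on that choice, as for *Dmd* and *Vcl* above. The ratio of *Dmd* to *Utrn*, the dystrophin paralog utrophin, was 1.175 ± 0.107 (SD, n = 3) in KO and 1.23 ± 0.0867 (SD, n = 3) in WT hearts, and that of *Dmd* to *Dag1* was 0.661 ± 0.0884 and 0.719 ± 0.0327. *Sgca* stood to its paralog *Sgce* at 16.1 ± 3.18 in KO and 18.4 ± 2.86 in WT hearts. *Sgcd* to *Sgcb* was 0.238 ± 0.00475 and 0.242 ± 0.01875, so that the delta-sarcoglycan transcript was less dense than the beta-sarcoglycan transcript in every heart. *Vcl* to *Itgb1* was 0.335 ± 0.0194 and 0.345 ± 0.0133, and *Cav3* to the broadly expressed *Cav1* was 0.731 ± 0.00456 and 0.692 ± 0.0844. KO and WT hearts overlapped in all 6 ratios. Exact permutation p values (two-sided) ran from 0.4 to 0.9, 0.72 to 0.9 after adjustment over the 6 ratios, in a design whose smallest p is 0.1.

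The wider complex was described by 5 lists of 70 genes, of which 69 were in the table and 66 were tested (*Sgcz*, *Nos1* and *Krt18* were too low, and *Krt8* was not analysed here). None passed an adjusted p of 0.05 (limma; lowest 0.772), and 6, or 9.09%, had an unadjusted p under 0.05, against 5.74% of all tested genes. Of the 66, 50 were lower and 16 higher in KO hearts, where 49.4% of all tested genes were lower, with a median log2 fold change of -0.03. These counts moved with the setting: 37 were lower and 29 higher after the read density correction, where 49.6% of all tested genes were lower. They were 38 and 28 without WT replicate 1, where 49.9% of all tested genes were lower. With scaling to the library total they were 39 and 27, but there only 41.8% of all tested genes were lower. Among the 6 were *Dtna*, *Pomgnt1*, *Sorbs2*, *Cryab* and *Actn2*. Apart from *Dtna* and *Cryab*, they were named after their values were seen. KO and WT hearts did not overlap for 6 of the 66, or 9.09%, a share close to the 9.07% of all tested genes.

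Of 13 other genes of the dystrophin complex and laminin, 5 were higher and 8 lower, with a median of -0.01. The split turned to 9 higher and 4 lower after the read density correction. It was 10 higher and 3 lower with scaling to the library total, where 41.8% of all tested genes were lower. *Utrn* had values of 2063, 2202 and 2184 in KO and 2117, 2245 and 2167 in WT hearts (log2 fold change -0.02). *Sspn*, sarcospan, and *Lama2*, the laminin chain that dystroglycan binds in muscle, were at -0.01 and -0.02, and *Sgce* was at 0.02. *Dtna*, the cytoplasmic partner alpha-dystrobrevin, had values of 562, 479 and 468 in KO and 537, 550 and 596 in WT hearts. Its log2 fold change was -0.16 (SE 0.07; limma, unadjusted p = 0.0438, adjusted p = 0.851), and the groups overlapped. *Nos1*, the neuronal nitric oxide synthase, was under the mean of 10 needed for the test, with values of 8, 3 and 6 in KO and 1, 3 and 3 in WT hearts.

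Dystroglycan binds laminin through a sugar chain built by a series of enzymes. Of the 13 tested, 5 were higher and 8 lower, with a median of -0.05. *Pomgnt1*, which adds an N-acetylglucosamine to the O-mannose of dystroglycan, had values of 219, 216 and 206 in KO and 189, 184 and 188 in WT hearts. All KO hearts lay above all WT hearts (log2 fold change 0.19, SE 0.08; limma, unadjusted p = 0.0335, adjusted p = 0.851). *Gmppb*, which makes GDP-mannose, also had its 3 KO hearts (53, 42 and 42) above its WT hearts (33, 37 and 37), with a log2 fold change of 0.34 (SE 0.18; limma, unadjusted p = 0.0754, adjusted p = 0.860). *Gmppb* was named after its values were seen. Such a separation, in either direction, was found for 9.07% of all tested genes. *Pomt1*, which starts the chain with a mannose, was at 0.02 with overlapping groups.

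Of 20 integrin adhesion genes, 1 was higher and 19 lower, with a median of -0.04, and 16 were lower after the read density correction. *Itga7*, the muscle laminin receptor chain, was at -0.08, the integrin activators *Tln1* and *Tln2* at -0.01 and -0.00, and *Ilk*, the integrin-linked kinase, at -0.03. *Csrp3* and *Flnc*, proteins of the Z-disc and its link to the membrane, were at -0.13 and -0.11 (-0.06 and -0.05 after the read density correction). *Sorbs2*, an adaptor of Z-discs and intercalated discs, had values of 2204, 2089 and 2025 in KO and 2476, 2315 and 2285 in WT hearts. All KO hearts lay below all WT hearts (log2 fold change -0.16, SE 0.05; limma, unadjusted p = 0.00753, adjusted p = 0.772). Groups were separate, in either direction, for 9.07% of all tested genes.

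Of 12 genes of filament linkers, spectrins and ankyrins, 3 were higher and 9 lower, with a median of -0.07 (-0.01 after the read density correction, with 5 higher and 7 lower). *Cryab*, the small heat shock protein that guards desmin filaments, had values of 422, 417 and 437 in KO and 545, 517 and 425 in WT hearts. Its log2 fold change was -0.21 (SE 0.08; limma, unadjusted p = 0.0162, adjusted p = 0.807), or -0.12 after the read density correction, and WT replicate 3 lay among the KO hearts, as it did for *Des*. *Synm*, which co-assembles with desmin, had values of 159, 157 and 194 in KO and 150, 156 and 149 in WT hearts. Its log2 fold change was 0.16 (limma, unadjusted p = 0.136). All KO hearts lay above all WT hearts for *Synm*, and all lay below for *Ank2*, the membrane adaptor ankyrin-B (-0.11; limma, unadjusted p = 0.0546). Separate groups, in either direction, were found for 9.07% of all tested genes. *Plec*, the linker plectin, was at -0.04, and *Actn2*, the Z-disc crosslinker, at -0.14 (limma, unadjusted p = 0.0420, adjusted p = 0.851). After the read density correction *Actn2* was at -0.02, and its unadjusted limma p reached 0.506 over the alternatives. Of 8 caveola genes, 2 were higher and 6 lower, but 7 were higher and 1 lower both after the read density correction and without WT replicate 1. With scaling to the library total 5 were higher and 3 lower, where 41.8% of all tested genes were lower. None had an unadjusted p under 0.05 (limma), with *Cav1* at -0.04, the coat protein *Cavin1* at -0.03 and the muscle-enriched *Cavin4* at -0.10 (-0.03 after the read density correction).

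**Figure D5:**
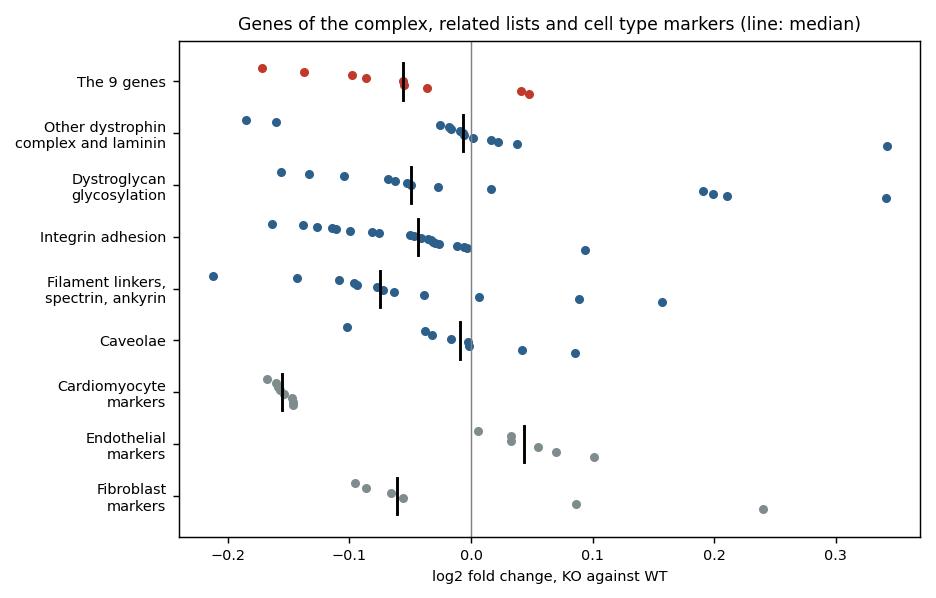
Log2 fold change, KO against WT (horizontal axis), of each tested gene of the 9, of the 5 related lists and of 3 lists of cell type markers (rows), with a line at the median of each list. The 9 genes lie between -0.17 and 0.05; the 8 cardiomyocyte markers all lie below 0, with a median of -0.16.

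Markers of other cells were read the same way. The 6 endothelial markers were all higher in KO hearts (median 0.04), 2 of 6 fibroblast markers were higher and 4 lower, and the same held for the 6 markers of smooth muscle cells and pericytes and the 6 leukocyte markers; 3 of 4 atrial markers were higher and 1 lower. The endothelial markers were all higher also after the read density correction (median 0.09) and without WT replicate 1. They were all higher with scaling to the library total and with limma-voom too. All 8 cardiomyocyte markers were lower in each of these same settings. The splits of the remaining marker lists moved. After the read density correction the smooth muscle and pericyte markers and the leukocyte markers were at 3 higher and 3 lower. All 4 atrial markers were then higher (median 0.16). The leukocyte markers were at 4 higher and 2 lower with scaling to the library total, with limma-voom and without WT replicate 1. In these settings the smooth muscle and pericyte markers were at 3 and 3. Of all tested genes, 41.8% were lower with scaling to the library total and 41.5% with limma-voom. Without WT replicate 1 the fibroblast markers were at 3 and 3 and the atrial markers at 2 and 2. None of these markers had an unadjusted p under 0.05 (limma). Summed levels of KO and WT hearts overlapped, with 3901 to 4487 and 3912 to 4361 for endothelial, 2204 to 2409 and 2268 to 2539 for fibroblast, 2833 to 3120 and 2879 to 3295 for smooth muscle and pericyte, 823 to 1150 and 947 to 1053 for leukocyte and 434 to 620 and 449 to 566 for atrial markers. Their part in the results was not tested.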

How the data were processed

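RNA of 3 *Trdn-as* KO and 3 WT hearts was sequenced as stranded total RNA with 75 bp single-end reads. Per the study's methods and the submitters' processing notes, the authors trimmed reads (Trimmomatic 0.39), aligned them to GRCm38 (STAR 2.6.1d), removed duplicates (Picard 2.21.1) and multi-mapping reads and counted per gene by strand (featureCounts 1.6.5). The deposited values are a score per gene: the read count divided by the DESeq2 (1.18.1) size factor and rounded by the authors to whole numbers. Raw counts were not analysed here, so limma replaced a count model. Size factors estimated from the pattern of skipped whole numbers were 0.795 to 1.149.

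Log2(value + 1) of genes with a mean of at least 10 was tested with limma 3.58.1 in R 4.3.3 (empirical Bayes with a mean-variance trend, two-sided, Benjamini-Hochberg adjustment, threshold 0.05). Each heart was 1 replicate. The limma p-values and intervals combine a gene's own spread between these hearts with a spread fitted over all tested genes. The degrees of freedom were 4 for the first and 15.4 for the second. Exon lengths came from GENCODE M21, which holds 99.77% of the gene identifiers. It gives the same coordinates for 75.16% of them, so gene coordinates are those of the table. No 75-base stretch of the other 7 genes was shared with another gene, and those of *Vcl* and *Des* were shared only with the opposite-strand genes named. Both the test and the size factor estimate were tested on simulated data. Alternatives were limma-voom, 2 other scalings, 2 other filters, a pseudocount of 0.1, a replicate block, no trend, a loess correction on reads per exonic kilobase, and leaving out each heart.

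Named genes are the 9, *Trdn-as*, *Trdn*, a set of paralogs and direct partners, listed genes past the threshold, and the 3 genes with the profile nearest the mean of the 9. The 9 genes and all lists were chosen with earlier results of these data known. Some of the named genes are not reported here.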

Additional observations from a re-analysis of the deposited data

How the results depend on the processing

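None of the 9 genes passed an adjusted p of 0.05 (limma) under any of the 15 alternatives. The count at an unadjusted p under 0.05, 1 with all settings as reported, was 0 with scaling to the library total, 0 without the mean-variance trend and 0 with the read density correction, and ran from 0 to 1 when a heart was left out. It was 0 without KO replicate 2 or 3 and without WT replicate 1 or 2. The single gene was *Sgca* without KO replicate 1 and *Des* without WT replicate 3. For the related genes the count of 6 became 2 without the trend, where the count over all genes went only from 790 to 780. With a heart left out the related count ran from 3 (without KO replicate 3, WT replicate 1 or WT replicate 2) to 12 (without WT replicate 3). The count over all genes moved as well, from 790 to 507, 600 and 652 in the first 3 of these fits and to 1182 in the last. *Sgcb* turned to 0.0136 and *Itgb1* to 0.0422 with the read density correction, and the cause was not tested. With a heart left out, *Dag1* ran from -0.0156 to 0.095, *Sgcb* from -0.077 to 0.0061 and *Cav3* from -0.0107 to 0.0807, and these lower ends for *Dag1* and *Cav3*, -0.0049 for *Dag1* without WT replicate 3 and the upper end for *Sgcb* were changes of sign. Scaling to the total and limma-voom moved the median of all genes to 0.02 and 0.03 and the share lower from 49.4% to 41.8% and 41.5%, and 7 of the 9 genes were lower under both.

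Same-numbered hearts were not paired: the correlations of their deviations were 0.05, -0.07 and -0.03. With a replicate block *Des* was at -0.14 (limma, unadjusted p = 0.0411), 1 of the 9 genes had an unadjusted p under 0.05, and 4 genes in all passed the threshold, as without it.

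For *Cav3* and *Sgcd* the spread between hearts was no larger than counting alone would give, and for *Vcl* it was little above that (0.0512 against 0.0449 on the log2 scale). The intervals given borrow spread from all tested genes, so the 3 hearts per group of a gene do not set them alone. Without the mean-variance trend the SE rose from 0.11 to 0.1465 for *Sgca* and from 0.06 to 0.092 for *Des*. It also rose for the other genes except *Cav3*, where it went from 0.09 to 0.0821. Single hearts were not tested as outliers.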

Other observations

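Among the 3 genes whose profile over the 6 hearts was nearest the mean profile of the 9 were *Etf1* and *Oat*, with root mean square differences of 0.00681 and 0.0121 on the log2 scale. *Etf1* encodes a translation release factor, and its values were 697, 678 and 677 in KO and 752, 705 and 694 in WT hearts. *Oat*, a mitochondrial aminotransferase, had 567, 547 and 553 in KO and 595, 564 and 563 in WT hearts. In both genes WT replicate 1 was the highest heart. The likeness was measured over 6 hearts and is a description.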
